A study of Homo sapiens with 4 samples.

Results

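The response of SW480 cells to knockdown of SHMT2 was described by comparing 1 library of SHMT2-knockdown SW480 cells with 1 library of control SW480 cells, out of 4 RNA libraries in the series. SW480 is a human colorectal cancer cell line. The other 2 libraries come from SW620, a second human colorectal cancer line, again with 1 library of SHMT2-knockdown cells and 1 of control cells, and they are used only to show where SW480 differs. Genes with at least 10 counts in both SW480 libraries were described, which were 12980 of the 26364 genes in the table. In the study, cells received a TET-ON pLKO lentivirus, from which doxycycline switches on a short hairpin RNA against SHMT2, and the infected cells were selected with puromycin. The labels call the other group control, and the text of the study speaks of control shRNA cells. Neither states which hairpin was sequenced, whether the control cells received doxycycline, or whether the cells were a pool or 1 clone. The methods give a single doxycycline schedule for knockdown in general and do not tie it to the sequenced cells.

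SHMT2 is the mitochondrial serine hydroxymethyltransferase, which splits serine into glycine and a one-carbon unit carried by folate, and the one-carbon units feed the synthesis of nucleotides and mitochondrial translation. Enzymes of sterol and fatty acid synthesis are switched on together by SREBP transcription factors, growth factor signaling through ERK induces immediate early genes such as those of the AP-1 factors, YAP acts with TEAD factors on genes such as CTGF and CYR61, and interferon-stimulated genes are induced by a transcription factor complex that holds STAT2 and IRF9.

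With 1 library a side there was no replicate, so no test was made and no p value is given. A level is a CPM scaled by TMM (scaled CPM), a difference is the log2 ratio of knockdown over control, and the 95% interval in square brackets covers counting error only. It leaves out the variation between cultures, and a difference between the libraries may come from the cultures as much as from the knockdown, which cannot be told apart. The SW480 totals were 9590550 counts for the control and 6432779 for the knockdown, so the latter library was 0.671 times as deep. In SW620 the knockdown library was 2.49 times as deep as its control, so the imbalance of depth ran the other way. The spread of the log2 ratios was wider than counting alone gives: among the 1253 genes with at least 1000 counts in both SW480 libraries their SD was 0.21, against a median counting error of 0.046, and 95% of them lay between -0.46 and 0.37. In bulk RNA, fewer cells of a type and less RNA per cell cannot be told apart.

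The colorectal epithelial label was checked against marker genes. EPCAM had 260 scaled CPM in control and 276 in knockdown cells, CDH1 had 99.7 and 130, and CDX2, an intestinal transcription factor, had 18.4 and 20.8. The keratins of simple epithelia were lower in knockdown cells, KRT8 with 3422 and 2491 scaled CPM, KRT18 with 1926 and 1334 and KRT19 with 1275 and 1140, and the summed level of the whole marker list was 77.0% of control. KRT20 had 15 and 4 counts. Other defining markers of the colon epithelium were at or near 0: CDX1 had 0 counts in both libraries, VIL1 had 2 in control and 1 in knockdown cells, CDH17 had 1 and 0, and LGALS4 had 2 and 0. Among markers of fibroblasts, endothelial cells and immune cells, DCN, LUM, CDH5 and PTPRC had 0 counts in both libraries. COL1A1 was the fibroblast marker that passed the filter, with 203 counts in control and 130 in knockdown cells. ESAM, an endothelial marker, had 111 and 67 counts, and CD68, which marks macrophages but is a lysosomal protein, had 104 and 34.

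SHMT2 itself was the largest fall in SW480. Its count was 2661 in the control library and 205 in the knockdown library, or 277 and 30.9 scaled CPM, a log2 ratio of -3.16 [-3.38, -2.96]. The transcript left was 11.2% of control. In SW620 the levels were 687 and 47.5 scaled CPM and the log2 ratio was -3.85. SHMT2 lies at chr12:57229327-57234935 on the plus strand of GRCh38 and overlaps NDUFA4L2 on the other strand, and their reads cannot be separated without strand. SHMT1, the cytosolic enzyme, had 68.1 and 69.0 scaled CPM, with a log2 ratio of 0.02 [-0.16, 0.19].

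Across the 12980 genes, 76 were at least 2-fold lower (0.586%) and 111 were at least 2-fold higher (0.855%) in SHMT2-knockdown SW480 cells. At a limit of 1.5-fold, 388 were lower (2.99%) and 625 were higher (4.82%). The falls lay at higher counts than the rises. Among genes with at least 100 counts in both libraries, 18 were at least 2-fold lower and 10 at least 2-fold higher, whereas among the 2304 genes whose smaller count was 10 to 49 there were 48 and 97. The whole interval lay beyond 1.5-fold for 39 of the falls and 30 of the rises. The split moved with the scaling, the depth and the filter. Library totals in place of TMM shift the median of all genes from 0.01 to 0.05 on the log2 scale. With them, 56 genes were at least 2-fold lower and 142 at least 2-fold higher. With the control thinned to the depth of the knockdown library these were 74 and 88, and with a filter of 50 counts 28 and 14.

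**Figure D1:**
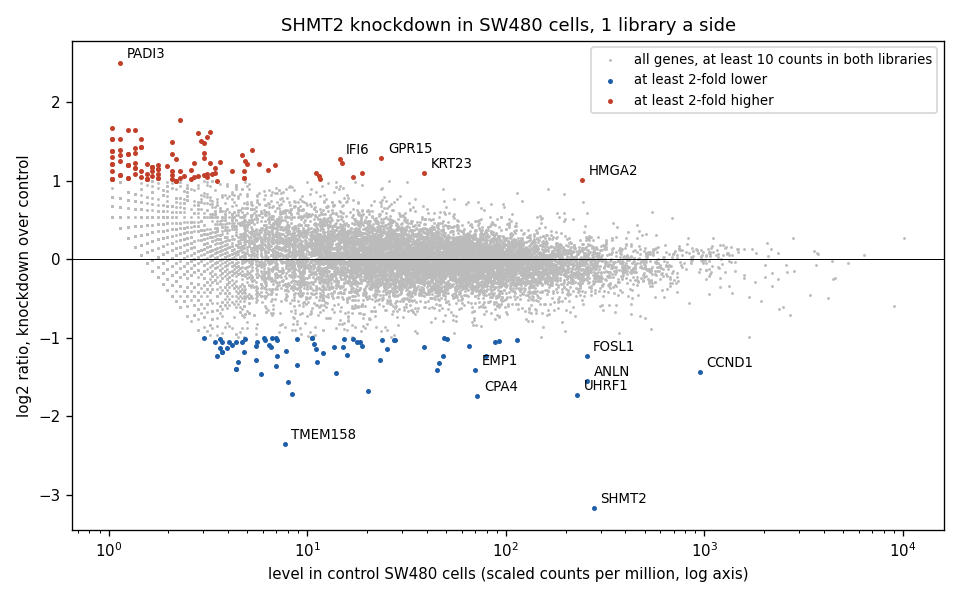
Log2 ratio of SHMT2-knockdown over control SW480 cells (vertical axis) against the level in control cells in scaled CPM (horizontal log axis), 1 point per gene with at least 10 counts in both libraries. Blue points are the 76 genes at least 2-fold lower and red points the 111 at least 2-fold higher; SHMT2, UHRF1, CCND1 and ANLN lie far below the rest at their level, and most red points lie at low levels.

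The leading falls below SHMT2 included 3 genes with roles in the cell cycle. UHRF1, which recruits the maintenance DNA methyltransferase to replicating DNA, had 2207 counts in control and 460 in knockdown cells, a log2 ratio of -1.73 [-1.88, -1.58]. ANLN, the actin-binding anillin of the cleavage furrow, had 2463 and 583 counts, a log2 ratio of -1.54 [-1.68, -1.41]. CCND1, cyclin D1, had 9102 and 2314 counts, a log2 ratio of -1.44 [-1.51, -1.37]. These 3 were lower by a like amount in SW620, with log2 ratios of -1.79, -1.27 and -1.37. CBFB, the partner subunit of RUNX factors, had 88.1 scaled CPM in control and 42.5 in knockdown cells, with a log2 ratio of -1.05 in SW480 and -1.23 in SW620. CDK2, a kinase of the G1/S transition, had a log2 ratio of -0.48 [-0.65, -0.32], and CDKN1B, the p27 inhibitor, of 0.34 [0.07, 0.62].

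Other leading falls were genes that SW620 hardly expressed, lowered less or did not lower. CPA4, a carboxypeptidase, had 690 counts in control and 142 in knockdown SW480 cells, a log2 ratio of -1.75 [-2.02, -1.48], and 0 and 2 counts in SW620. TMEM158, a membrane protein induced by RAS, had 74 and 10 counts, a log2 ratio of -2.35 [-3.47, -1.39]. SPHK1, sphingosine kinase 1, had 81 and 17 counts, a log2 ratio of -1.72 [-2.57, -0.95]. EMP1, an epithelial membrane protein, had 673 and 175 counts in SW480, where its log2 ratio was -1.41 [-1.66, -1.17]. In SW620 the same gene went from 6.96 scaled CPM in control to 16.1 in knockdown cells, a log2 ratio of 1.21. FGFBP1, which carries fibroblast growth factors, had 134 and 34 counts, with a log2 ratio of -1.44 [-2.03, -0.89]. BCAR3, an adaptor of SRC and CAS signaling, had 767 and 225 counts, with a log2 ratio of -1.23 in SW480 and 0.30 in SW620. MIR3918 had 195 and 42 counts, but it lies within SYTL3 on the opposite strand, and SYTL3 itself had 1096 and 372 counts, so its reads cannot be told from those of SYTL3 without strand.

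The leading rises were fewer at high counts. HMGA2, an architectural chromatin protein, had 2329 counts in control and 3237 in the shallower knockdown library, or 242 and 488 scaled CPM, a log2 ratio of 1.01 [0.93, 1.09]. It was higher in SW620 too, with a log2 ratio of 0.92. GPR15, a chemoattractant receptor of gut-homing T cells, had 227 and 382 counts in SW480, a log2 ratio of 1.29 [1.04, 1.53], and 0 counts in either SW620 library. KRT23, an epithelial keratin, had 372 and 551 counts, 2.15-fold higher in SW480, and had a log2 ratio of -0.66 in SW620. CEMIP, which takes part in the breakdown of hyaluronan, had 18.9 and 40.5 scaled CPM in SW480 and a log2 ratio of -0.58 in SW620. SCG2, a secretory granule protein, had 144 and 232 counts, a log2 ratio of 1.22 [0.92, 1.53]. SESN3, a sestrin, had 51 and 92 counts, a log2 ratio of 1.39 [0.88, 1.91].
At lower counts, PADI3, a peptidylarginine deiminase, had 11 and 43 counts, and its ratio was the largest of the leading rises, with an interval from 1.52 to 3.61 on the log2 scale. ABCA1, the cholesterol efflux pump, had 28 and 55 counts, with a log2 ratio of 1.51 [0.83, 2.22], and 1.83 and 7.13 scaled CPM in SW620. SEPP1, a secreted selenium carrier, and CCDC152 overlap on opposite strands. Their counts were 30 and 61 for SEPP1 and 22 and 52 for CCDC152, and these are not separate rises if strand was not used.

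**Figure D2:**
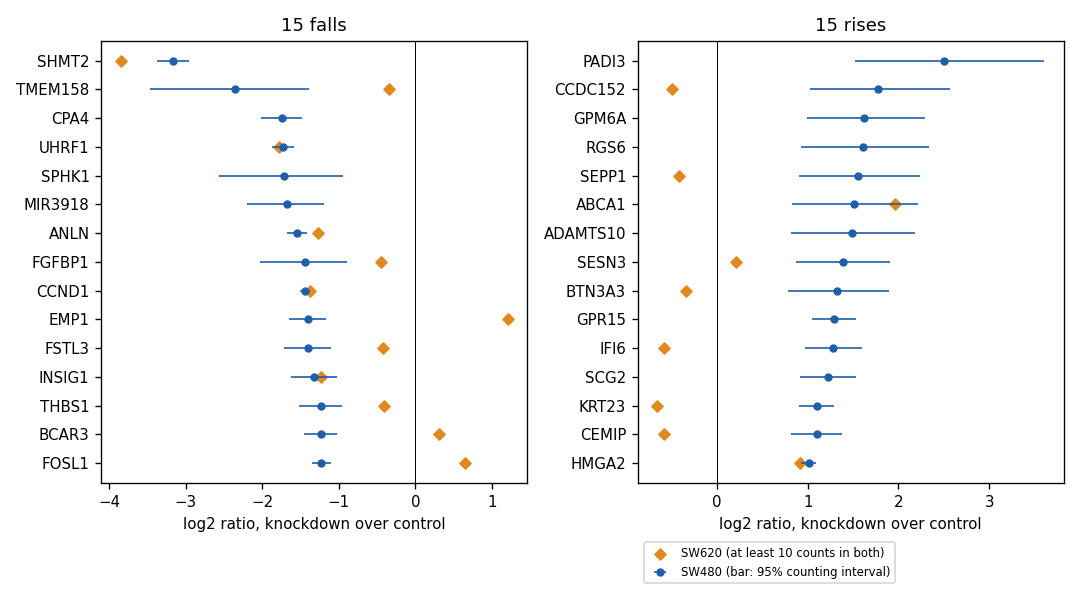
Log2 ratios of knockdown over control for the 15 falls (left) and 15 rises (right) of at least 2-fold in SW480 whose 95% counting interval (bar) lies farthest from 0, with the SW620 ratio as an orange diamond where both SW620 libraries had at least 10 counts. The diamonds of UHRF1, ANLN, CCND1, INSIG1, ABCA1 and HMGA2 lie near the SW480 points, and those of EMP1, BCAR3, FOSL1, IFI6, KRT23 and CEMIP lie on the other side of 0.

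The response was then set beside that of SW620. Of the 76 genes at least 2-fold lower in SW480, 29 had under 10 counts in at least 1 SW620 library and 47 were measured in all 4 libraries. Of these 47, 17 were at least 1.5-fold lower in SW620 as well, 11 of them at least 2-fold. A further 22 were lower by under 0.32 on the log2 scale, or were higher, in SW620, which is 0.19% of the 11576 genes with at least 10 counts in all 4 libraries. Of the 111 genes at least 2-fold higher, 62 were measured in all 4 libraries, and 3 of them were at least 1.5-fold higher in SW620. Another 56 were not higher in SW620 by 0.32 on the log2 scale, or 0.484% of the 11576. The interval of the difference left out 0 for 46 of them, but the genes were chosen by that difference, so its interval is not separate support. The share of all genes that met this limit of 0.32 in SW620 was not counted. The 22 and the 56 are therefore not shown to be particular to SW480. As a background, 492 of 12460 genes in SW620 were at least 1.5-fold lower (3.95%) and 399 at least 1.5-fold higher (3.2%). The 17 of 47 falls lay above the first of these shares, whereas the 3 of 62 rises lay near the second. The falls of SW480 had more members also lower in SW620 than the rises had members also higher. Medians in SW620 were -0.39 for the 47 falls and -0.23 for the 62 rises. The shared falls include SHMT2, the target of the knockdown. The rises were also the noisier set: 97 of the 111 had a smaller SW480 count of 10 to 49, against 48 of the 76 falls. Across genes, which are not independent replicates, the log2 ratios of the lines had a Pearson's r of 0.10 over all 11576 genes and 0.33 over the 843 with at least 1000 counts in every library. A model with a different effect in each line leaves 0 residual degrees of freedom, so no difference between the lines was tested.

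Among the falls seen in SW480 and not in SW620, the 10 whose difference between the lines lay farthest from 0 included EMP1, BCAR3, and the AP-1 subunits FOSL1 and FOSL2. FOSL1 had 255 scaled CPM in control and 109 in knockdown SW480 cells, and 48.3 and 76.2 in SW620. Its difference between the lines was -1.88 [-2.11, -1.65]. AMOTL2, which binds and restrains YAP, had 92.3 and 45.0 scaled CPM in SW480 and 9.34 and 9.65 in SW620, a difference of -1.08 [-1.59, -0.58]. NRP2, a receptor for semaphorins and VEGF, had 5.51 and 2.26 scaled CPM in SW480 and 23.4 and 41.1 in SW620. SPC24, a kinetochore subunit, had 147 and 50 counts in SW480, and its reads may mix with those of an overlapping gene if strand was not used. C1orf116, ARHGDIB and HOXC13 made up the rest, with log2 ratios of -1.19, -1.56 and -1.12 in SW480 and of 0.19, -0.21 and 0.10 in SW620.
Among the rises, the 10 were CEMIP, KRT23, IFI6, IFIT1, IRF9, BTN3A3, SEPP1, CCDC152, FGGY and ZNF362. BTN3A3, a butyrophilin, had 4.68 and 11.8 scaled CPM in SW480 and 11.2 and 8.83 in SW620. IFI6, IFIT1 and IRF9 belong to the interferon-stimulated genes, described below.

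**Figure D3:**
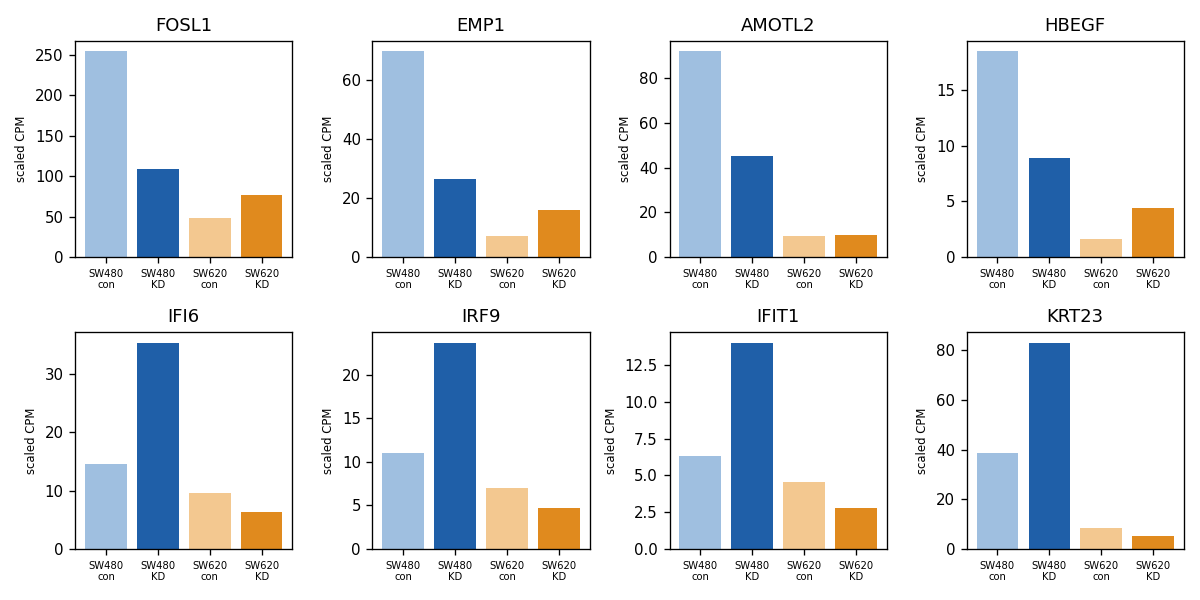
Level of 8 genes in the 4 libraries in scaled CPM, from 0, with control (con) and knockdown (KD) bars for SW480 (blue) and SW620 (orange) and 1 library per bar. FOSL1, EMP1, AMOTL2 and HBEGF are lower in knockdown SW480 cells and not in knockdown SW620 cells; IFI6, IRF9, IFIT1 and KRT23 are higher in knockdown SW480 cells and lower in knockdown SW620 cells.

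Many enzymes of cholesterol synthesis were lower. All 22 of the list passed the filter, and 20 had a ratio below 0. At least 1.5-fold lower were 11 (50%, beside 2.99% over all genes), against 1 at least 1.5-fold higher (4.55%, beside 4.82%). Their median log2 ratio was -0.58, beside 0.01 over all genes, and their summed level was 67.3% of control. IDI1, which isomerizes the isoprenoid precursor, had 65.2 and 30.4 scaled CPM, a log2 ratio of -1.10 [-1.34, -0.87]. FDFT1, squalene synthase, had 199 and 105 scaled CPM, a log2 ratio of -0.92 [-1.05, -0.79]. HMGCS1, HMG-CoA synthase, had 68.6 and 38.6, a log2 ratio of -0.83 [-1.05, -0.62]. MVK and MVD, kinase and decarboxylase of the mevalonate branch, had log2 ratios of -0.87 and -0.76. DHCR7, which acts at the end of the pathway, had a ratio of -0.65. LSS, lanosterol synthase, lay just under the 1.5-fold limit at -0.54. The 2 members above 0 were TM7SF2, a sterol reductase, with 33.0 and 51.4 scaled CPM and a log2 ratio of 0.64 [0.42, 0.87], and GGPS1, which makes a longer isoprenoid, at 0.22 [-0.10, 0.54]. The median over the same 22 genes in SW620 was -0.22, with 1 gene, IDI1, at least 1.5-fold lower there.

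The genes of SREBP control and LDL uptake did not move together. Of 11 that passed, 4 were at least 1.5-fold lower (36.4%, beside 2.99% over all genes) and 0 higher. INSIG1, which retains SREBP in the endoplasmic reticulum and is itself an SREBP target, had 45.8 and 18.4 scaled CPM, a log2 ratio of -1.32 [-1.62, -1.03], near its -1.23 in SW620. INSIG2 had 123 and 61 counts, a log2 ratio of -0.48 [-0.94, -0.02]. STARD4, a sterol carrier, had a log2 ratio of -0.94 [-1.25, -0.64]. The factors and their processing machinery lay closer to their control level: the log2 ratio was 0.03 for SREBF1, -0.24 for SREBF2, and 0.01 for SCAP and MBTPS2. MYLIP, a ubiquitin ligase, had a log2 ratio of 0.58 [0.14, 1.03].

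Of 28 genes of fatty acid and phospholipid synthesis, 3 were at least 1.5-fold lower (10.7%, beside 2.99% over all genes). In the same list 1 was higher (3.57%, beside 4.82%), and the median was -0.18. SCD, the desaturase that makes oleate, had 16072 counts in control and 5606 in knockdown cells, a log2 ratio of -0.98 [-1.03, -0.94] in SW480 and -0.86 in SW620. FASN, fatty acid synthase, had 22909 and 10193 counts, a log2 ratio of -0.63 [-0.67, -0.60] in SW480, against -0.06 in SW620. AGPAT6, a glycerol phosphate acyltransferase, had a log2 ratio of -0.68. DGAT2, which makes triglyceride, was the member that was higher, with 46 and 65 counts.

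Immediate early genes and genes of ERK feedback were lower in a subset. Of 33 that passed, 10 (30.3%, beside 2.99% over all genes) were at least 1.5-fold lower. In the same list 1, ETV1, was higher (3.03%, beside 4.82%), and the median was -0.16. CCND1, FOSL1 and FOSL2 led, the last with 38.7 and 17.8 scaled CPM and a log2 ratio of -1.12 [-1.43, -0.82]. HBEGF, an EGF receptor ligand, had 178 and 59 counts in SW480, a log2 ratio of -1.06 [-1.51, -0.63]. EPHA2, a receptor tyrosine kinase, had 370 and 193 scaled CPM, a log2 ratio of -0.94 [-1.03, -0.85]. EGR1, DUSP5, IER2, AREG and ATF3 had log2 ratios from -0.73 to -0.59. Not all ERK outputs were lower: DUSP6 had a log2 ratio of 0.20, ETV4 of 0.07 and SPRY4 of -0.03, and MYC lay at -0.34. Of the 8 lowered genes with at least 10 counts in all 4 libraries, CCND1 was at least 1.5-fold lower in SW620 too, and 6 had a ratio above 0 there. The median over the 30 genes measured in both lines was -0.15 in SW480 and 0.21 in SW620. All 10 lowered genes had a higher level in control SW480 than in control SW620 cells. The same held for 8 of the 11 lowered cholesterol synthesis genes and for 11 of the 14 raised interferon-stimulated genes described below. The share over all genes was not counted, and the SW480 control level is also the denominator of the ratio that chose these genes.

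A subset of YAP and TEAD targets was lower. Of 22 that passed, 20 had a ratio below 0, with a median of -0.45. At least 1.5-fold lower were 9 (40.9%, beside 2.99% over all genes), against 0 higher. CYR61, a matricellular protein, had 223 counts in control and 63 in knockdown cells, a log2 ratio of -1.29 [-1.72, -0.88]. CTGF, its relative, had 56 and 14 counts, a log2 ratio of -1.47 [-2.43, -0.60]. THBS1, thrombospondin 1, had 48.2 and 20.5 scaled CPM, a log2 ratio of -1.24 [-1.52, -0.96]. FSTL3, which binds activin, had 434 and 113 counts, a log2 ratio of -1.41 [-1.72, -1.10], and F3, tissue factor, had 263 and 93. NT5E, the CD73 ecto-nucleotidase, had 223 and 135 scaled CPM, and AXL, a receptor tyrosine kinase, had 141 and 90.5. Others lay nearer their control level, such as ARHGAP29 at -0.27 and MYOF, a ferlin, at 0.14. The 19 members with at least 10 counts in all 4 libraries all had a lower ratio in SW480 than in SW620, with medians of -0.48 and 0.12. The share over all genes was not counted, and the lean was not particular to this list. A lower ratio in SW480 was also held by 18 of 20 cytosolic aminoacyl-tRNA synthetases and 17 of 18 cytosolic heat shock proteins. Among the interferon-stimulated genes it was held by 6 of 24. Of the 9 lowered genes, 8 were measured in all 4 libraries, and ANLN was at least 1.5-fold lower in SW620. Of the 9, 8 also had a higher level in control SW480 than in control SW620 cells. This list and that of the immediate early genes share 0 genes, and ANLN is also on the G2/M list.

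Genes of the cytoskeleton and matrix that are often named beside these programs were also described. Of 42 genes of the actin cytoskeleton, 32 had a ratio below 0 and 3 were at least 1.5-fold lower (7.14%, beside 2.99% over all genes). ACTG1, gamma actin, had 86834 and 39548 counts, a log2 ratio of -0.60 [-0.62, -0.58] in SW480 and 0.13 in SW620, and EZR, ezrin, which links actin to the membrane, had a log2 ratio of -0.72 in SW480 and -0.03 in SW620. Among 39 genes of laminins, collagens and matrix, 8 were at least 1.5-fold lower (20.5%, beside 2.99%) and 2 higher (5.13%, beside 4.82%). LAMB3, a chain of laminin 332, had 56.5 and 32.7 scaled CPM, a log2 ratio of -0.79, and COL12A1, a collagen, had 200 and 128, a log2 ratio of -0.65. SPARC, a matrix glycoprotein, was higher, with 66 and 105 counts and a log2 ratio of 1.20 [0.75, 1.67]. The cadherin and tight junction list had 0 of 34 members at least 1.5-fold lower and 4 higher (11.8%, beside 4.82% over all genes). Of these 4, CEACAM1 (35 and 37 counts) and CLDN23 (27 and 30) had intervals that spanned 0, and CLDN2 had 14 and 26 counts. TJP3 had 471 and 494 counts, a log2 ratio of 0.60 [0.42, 0.79]. CDH1 lay at 0.38 [0.25, 0.52].

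A subset of interferon-stimulated genes was higher in SW480. Of 46 listed, 34 passed the filter and the others had under 10 counts in at least 1 library. Of the 34, 31 had a ratio above 0, and 14 (41.2%, beside 4.82% over all genes) were at least 1.5-fold higher against 0 lower. Their median log2 ratio was 0.48 and their summed level was 128% of control. Levels of the raised members were low, with control counts of 10 to 209, whereas the 4.82% is over genes of all counts. Ratios spread more widely at low counts, with an SD of 0.51 and a median of 0.10 where the smaller count was 10 to 49. With a filter of 50 counts in both libraries, 8 members and 245 of all genes were at least 1.5-fold higher. IFI6, a mitochondrial antiapoptotic protein, had 140 counts in control and 235 in the shallower knockdown library, or 14.6 and 35.4 scaled CPM, a log2 ratio of 1.28 [0.97, 1.59]. IRF9, the DNA-binding subunit of the interferon complex, had 106 and 157 counts, with an interval from 0.74 to 1.47 on the log2 scale. PARP9, which acts with DTX3L, had 163 and 233 counts, a log2 ratio of 1.05 [0.76, 1.35], and DTX3L itself had 209 and 242, a ratio of 0.75 [0.47, 1.02]. PARP9 and DTX3L overlap on opposite strands, so these may not be separate rises if strand was not used. The IFIT genes, which bind foreign RNA, split: log2 ratios were 1.14 for IFIT1, 1.16 for IFIT2 and 1.19 for IFIT3, whereas IFIT5, with the highest counts of these (245 and 177), lay at 0.07 [-0.22, 0.35]. OAS1 and IFITM1 had the highest ratios on few counts, 10 and 20 for OAS1, whose log2 ratio was 1.53 [0.37, 2.79], and 20 and 39 for IFITM1. IFITM1 overlaps IFITM2 on the same strand, so their reads may mix. DDX58, the RNA sensor RIG-I, had 15.3 and 26.2 scaled CPM. Other classical members were close to their control level: ISG15 had a log2 ratio of 0.27, IRF7 of 0.07 and IRF1 of 0.15. IFITM3, with the highest control level of the list, had 2960 and 2316 counts and a log2 ratio of 0.18 [0.10, 0.26]. OAS3 had 996 and 934 counts and lay at 0.44 [0.31, 0.57]. In SW620 the median over the 24 members measured in both lines was 0.04, against 0.40 for the same genes in SW480. Of the 9 raised members measured in SW620, 4 had a ratio below 0 there. IFI6, IRF9 and IFIT1 were among these 4, with ratios of -0.58, -0.57 and -0.74, and were named for their difference between the lines. PARP9 had a ratio of 0.32 in SW620. None of the 14 raised members was at least 1.5-fold higher in SW620 among the 9 measured there.

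**Figure D4:**
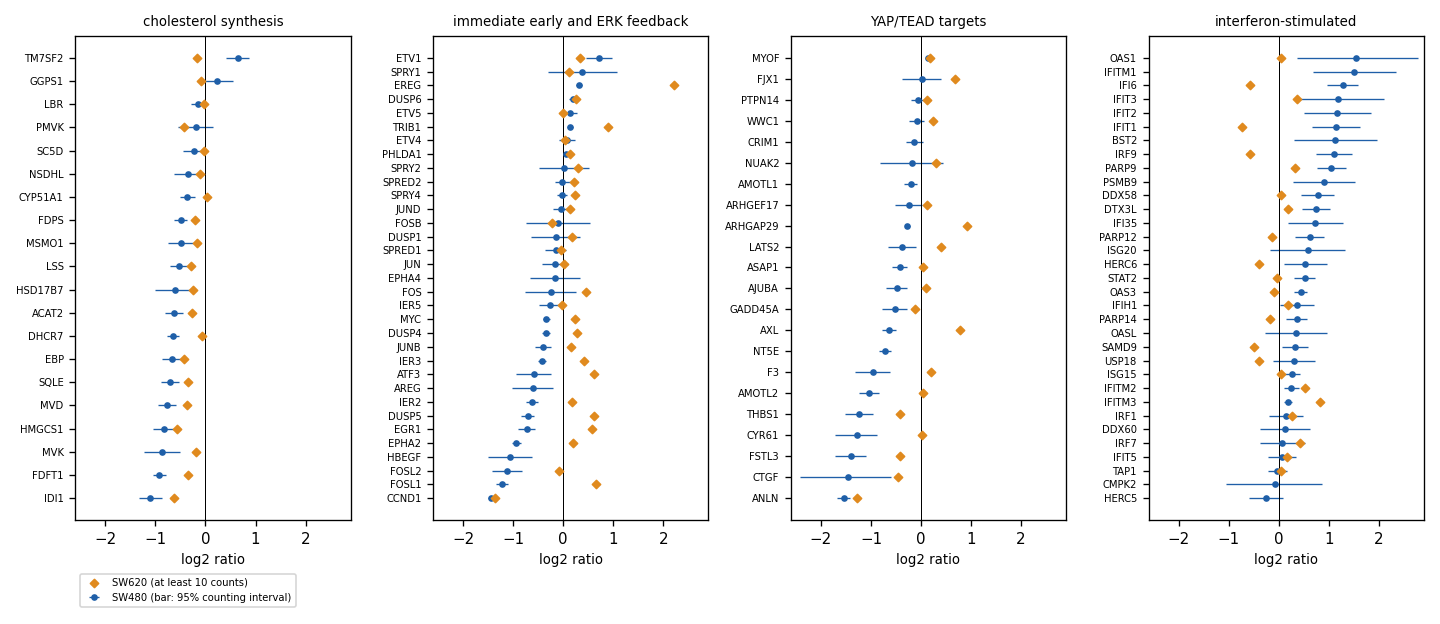
Log2 ratios of knockdown over control for members that passed the filter in 4 gene lists, with SW480 as blue points and 95% counting intervals and SW620 as orange diamonds where both libraries had at least 10 counts. The SW480 points of cholesterol synthesis and of the YAP/TEAD targets lie mostly left of 0 and those of the interferon-stimulated genes mostly right of 0, while the SW620 diamonds of the immediate early, YAP/TEAD and interferon-stimulated lists lie on both sides of 0.

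The promoters of interferon-stimulated genes were searched for the interferon-stimulated response element, the DNA element through which this class of genes is known to be induced. The window was 250 bases before to 50 bases after the transcription start in RefSeq (GRCh38.p14), and the letters searched were GAAA, any 2 bases and GAAA again, on both strands. They were found in 18 of 27 promoters of list members (66.7%) and in 3.57% of all 35116 promoters. Of the 14 raised members, 12 had a promoter in the table, of which 7 held a match. The match was thus no more frequent among the raised members than over the whole list. The match describes letters only and is not evidence of binding. The promoters of 4 raised genes are shown 5′ to 3′ on the gene's strand, with matches in capitals; in IFIT1 they read on the opposite strand. IFI6 is at chr1:27672143-27672442 (minus strand) with 3 matches, IFITM1 at chr11:313790-314089 (plus), IFIT1 at chr10:89392373-89392672 (plus) and DTX3L at chr3:122564088-122564387 (plus).
IFI6: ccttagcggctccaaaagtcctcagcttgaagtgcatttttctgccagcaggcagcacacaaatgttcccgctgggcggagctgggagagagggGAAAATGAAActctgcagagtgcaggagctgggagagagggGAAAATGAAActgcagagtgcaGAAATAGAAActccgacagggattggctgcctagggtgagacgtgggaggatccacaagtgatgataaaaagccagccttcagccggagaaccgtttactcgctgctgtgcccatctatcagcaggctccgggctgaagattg
IFITM1: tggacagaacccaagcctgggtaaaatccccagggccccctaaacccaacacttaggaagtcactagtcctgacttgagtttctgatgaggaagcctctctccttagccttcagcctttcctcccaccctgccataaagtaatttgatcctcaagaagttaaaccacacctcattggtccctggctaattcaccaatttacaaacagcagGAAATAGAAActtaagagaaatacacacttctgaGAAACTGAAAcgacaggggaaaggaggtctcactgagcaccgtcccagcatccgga
IFIT1: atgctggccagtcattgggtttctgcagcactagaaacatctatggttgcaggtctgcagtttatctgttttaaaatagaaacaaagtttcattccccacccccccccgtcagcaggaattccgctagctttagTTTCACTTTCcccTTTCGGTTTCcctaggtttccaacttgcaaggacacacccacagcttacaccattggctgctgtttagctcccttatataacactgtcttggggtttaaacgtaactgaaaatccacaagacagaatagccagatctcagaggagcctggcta
DTX3L: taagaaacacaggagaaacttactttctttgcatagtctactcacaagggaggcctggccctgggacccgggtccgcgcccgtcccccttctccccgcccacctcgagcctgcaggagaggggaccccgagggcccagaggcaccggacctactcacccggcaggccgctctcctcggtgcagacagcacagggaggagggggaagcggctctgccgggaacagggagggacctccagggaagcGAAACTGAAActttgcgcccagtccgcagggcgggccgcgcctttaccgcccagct
The same window was searched for TCACNCCAC, a form of the sterol regulatory element, in the cholesterol synthesis genes, and it held a match in 0 of 17 promoters, against 1.13% of all promoters. TGANTCA, the AP-1 element, was found in 1 of 24 promoters of the immediate early list, that of FOSL2, against 7.71% of all. At these shares, 17 or 24 promoters drawn from all promoters would hold few or no matches, so counts of 0 and 1 say little. Other forms of the elements were not searched, so these counts do not show that the genes lack them.

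Of the cell cycle lists, those of S phase and G2/M had most ratios below 0 and few members past 1.5-fold. All 43 S phase genes had a ratio below 0, with a median of -0.34, and 5 were at least 1.5-fold lower (11.6%, beside 2.99% over all genes). Beside UHRF1 these were WDR76, CDC6, EXO1 and CDC45, with log2 ratios from -0.64 to -0.61. PCNA, the replication clamp, lay at -0.45, and MCM2 of the helicase at -0.36. Of 54 G2/M genes, 51 had a ratio below 0 with a median of -0.24. ANLN, CDC20 and NUF2 were at least 1.5-fold lower (5.56%, beside 2.99% over all genes). The same lists had medians of -0.24 and -0.20 in SW620. Of 30 G1 cyclins, CDKs, inhibitors and E2F/RB genes, 20 had a ratio below 0 and 10 above, with a median of -0.16. CCND1 and E2F1 were at least 1.5-fold lower (6.67%, beside 2.99% over all genes). Most S phase and G2/M members lay within the range that 95% of well-counted genes spanned, and the count of S phase genes past 1.5-fold fell to 2 with library totals. MXD4, a MAX partner that opposes MYC, was the member of the G1 list at least 1.5-fold higher (3.33%, beside 4.82% over all genes). It had 31.9 and 63.4 scaled CPM, a log2 ratio of 0.99 [0.77, 1.21].

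The pathway of SHMT2 itself showed 1 member past 1.5-fold, SHMT2, among 33 genes of folate one-carbon, serine and glycine metabolism (3.03%, beside 2.99% lower over all genes). MTHFD2, its partner in mitochondria, had a log2 ratio of -0.08, MTHFD1L of -0.06 and MTHFD1 of -0.08. PHGDH, the entry enzyme of serine synthesis, lay at 0.57, just under the limit, PSAT1 at 0.26 and PSPH at 0.08. TYMS, thymidylate synthase, lay at -0.50. ATF4, the factor of the amino acid response, had a log2 ratio of -0.17 [-0.24, -0.10] in SW480 and 0.40 in SW620, and its 33 targets had medians of -0.10 and 0.25. At least 1.5-fold lower in SW480 were ATF3 and SHMT2 itself, which is on that list too (6.06%, beside 2.99% over all genes). None was higher (beside 4.82%).

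Lists of mitochondrial and cytosolic protein synthesis stayed near their control level. None of 77 nuclear genes of the respiratory chain and ATP synthase, 76 mitochondrial ribosomal proteins, 82 cytosolic ribosomal proteins or 20 cytosolic aminoacyl-tRNA synthetases was 1.5-fold changed, and their medians were 0.05, -0.05, 0.07 and 0.04. Of 34 genes of purine and pyrimidine synthesis, 1 was at least 1.5-fold lower (2.94%, beside 2.99% over all genes), NME1, with 92.7 and 56.0 scaled CPM. In the same list 1 was higher (2.94%, beside 4.82%), ADSSL1, with 30 and 41 counts and a log2 ratio of 0.99 [0.27, 1.72]. Among 19 cytosolic heat shock proteins, 18 had a ratio below 0, with a median of -0.25. Of 28 genes of the endoplasmic reticulum chaperones, 2 were at least 1.5-fold lower (7.14%, beside 2.99% over all genes), and the median was 0.00.

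Wnt targets and intestinal stem cell genes had 2 of 23 members at least 1.5-fold higher (8.70%, beside 4.82% over all genes). These were AXIN2, a feedback inhibitor of the pathway, with 145 and 188 counts and a log2 ratio of 0.91 [0.59, 1.23], and SOX4, with 1096 and 1355 counts and 0.84 [0.72, 0.96]. In SW620 these ratios were -0.16 and -0.09. ID3, a target of BMP signaling, had 48.4 and 90.2 scaled CPM in SW480, a log2 ratio of 0.90 [0.72, 1.07]. ABCC2, an export pump, had 162 and 302 scaled CPM, a log2 ratio of 0.90 [0.80, 0.99], and TXNRD1, thioredoxin reductase, had 501 and 298, a log2 ratio of -0.75 [-0.82, -0.67].

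**Figure D5:**
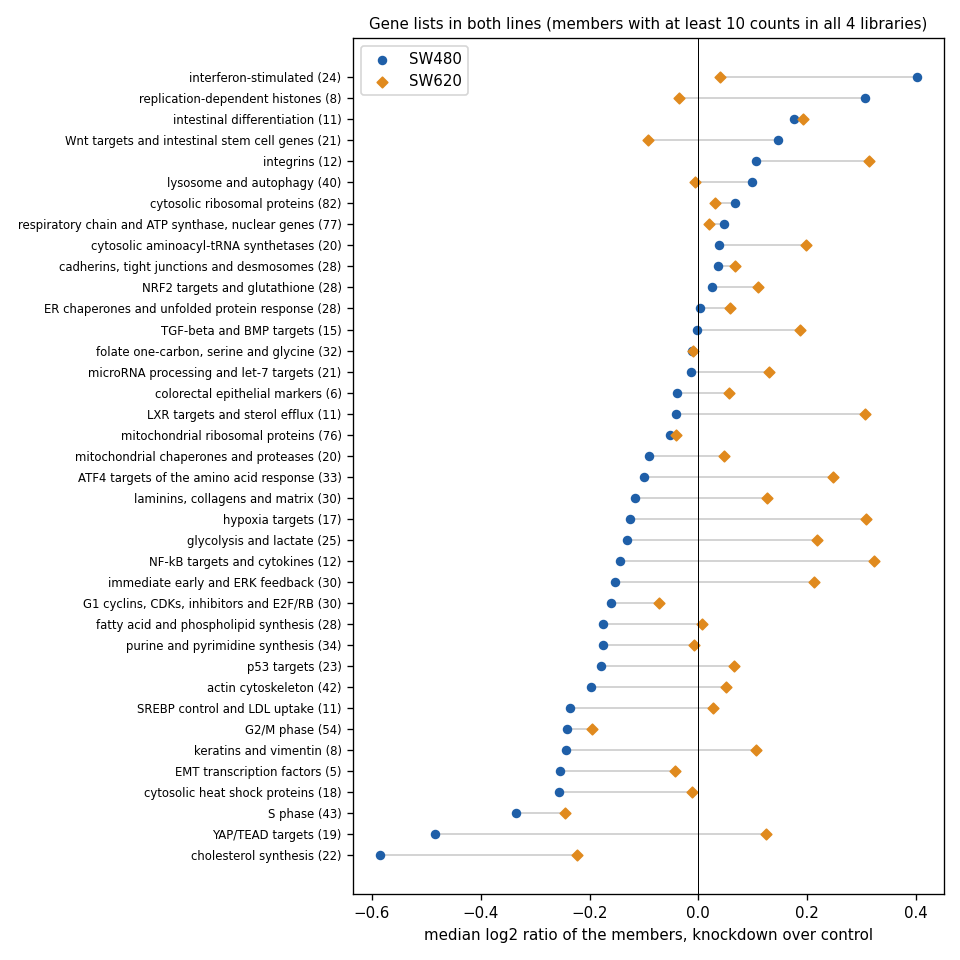
Median log2 ratio of knockdown over control for gene lists with at least 5 members measured in all 4 libraries, over the same genes in SW480 (blue) and SW620 (orange), with the number of members in parentheses. Cholesterol synthesis (-0.58 and -0.22) and the YAP/TEAD targets (-0.48 and 0.12) have the lowest SW480 medians of the lists drawn, and the interferon-stimulated genes (0.40 and 0.04) the highest.

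Genes that fell out of the filter were examined separately, since 665 genes had 10 counts in only 1 SW480 library. Among genes with under 3 counts in knockdown cells, the highest control counts were 19 for LOC101929128, 18 for ISL1, a LIM-homeobox factor, and for PLAC1, 17 for LINC01186 and 16 for IL12A-AS1. In knockdown cells ISL1 and PLAC1 had 1 count, a log2 ratio of -3.64 [-9.02, -0.97] each. Among genes with under 3 counts in control cells, ATOH8, a basic helix-loop-helix factor, had 2 and 14 counts, a log2 ratio of 3.34 [1.22, 6.52], and SPATA17-AS1 had 1 and 10. APOL6, CKLF and NAALADL2 had 9 counts each in knockdown cells. No gene that was abundant in 1 SW480 library was lost from the other.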

How the data were processed

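RNA was extracted with Trizol and made into Illumina TruSeq libraries, per the labels, from SHMT2-knockdown and control cells of each line. The study's methods also name an Agilent microarray, but the values are whole numbers with unequal totals. The authors deposited 1 table of raw counts per gene symbol, not normalized, with a column for each library named by its title. The submitters' processing notes name Bowtie 0.12.2 and the build hg18 with no role; the counting program, annotation and use of strand are not given in the sources used here. In 28 of the 26364 gene names, spreadsheet software had made dates of symbols (0.204% of the counts of both SW480 libraries); these were kept as deposited.

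Counts were scaled by TMM over all 4 libraries (edgeR 4.0.16, R 4.3.3), and genes with at least 10 counts in both SW480 libraries were kept. Log2 ratios were taken without a prior count. Intervals are the exact (Clopper-Pearson) 95% interval of the knockdown share of both counts, turned into a ratio; intervals of differences between lines use a normal approximation. They cover counting error only, and reads are not independent molecules. Called means at least 2-fold, or 1.5-fold within gene lists. The scripts were tested on simulated data. Genes named are SHMT2 and SHMT1, genes the study assayed singly, the 15 falls and 15 rises of at least 2-fold with intervals farthest from 0, the 10 falls and 10 rises seen in SW480 and not in SW620 (under 1.25-fold there) with the difference farthest from 0, the 5 highest counts opposite a count under 3, and, for each of 42 gene lists, up to 6 members past 1.5-fold and the 3 with the highest control level; further list members were named after their values were seen, to show a list's range. Members and lists were chosen with earlier results of these data known. Alternatives were library totals, DESeq2 1.42.0 size factors, TMM from the 2 SW480 libraries, filters of 50 and 1 count, a prior count of 2, thinning of the deeper library, and removal of a length and GC trend. Positions are from GENCODE 29 on GRCh38 and promoters from RefSeq GRCh38.p14, neither being the authors' build. Some genes are not reported here.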

Additional observations from a re-analysis of the deposited data

Results flagged for a closer look

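Some genes were at least 1.5-fold changed in opposite directions in the lines, and some list medians had opposite signs. No difference was tested, since there was 1 library a side in either line. Values are the log2 ratio in SW480 minus that in SW620.

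Genes lower in SW480 and higher in SW620 were EMP1 (-2.62), NRP2 (-2.10), SLC2A3, a glucose transporter (-1.98), FOSL1 (-1.88), TNFAIP3, an inhibitor of NF-kB (-1.68), KRT80 (-1.67), DUSP5 (-1.33) and ATF3 (-1.20). Genes higher in SW480 and lower in SW620 were IFIT1 (1.88), KRT23 (1.76), ADSSL1, an adenylosuccinate synthase (1.66), and GFI1, a transcription factor of secretory cells (1.28).

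List medians of opposite sign, both at least 0.1 from 0 on the log2 scale and over at least 5 genes, differed by -0.61 for the YAP/TEAD targets, -0.47 for NF-kB targets and cytokines, -0.43 for hypoxia targets, -0.37 for immediate early genes and ERK feedback, -0.35 for glycolysis and lactate, -0.35 for keratins and vimentin, and -0.24 for laminins, collagens and matrix.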

How the results depend on the processing

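The filter on low counts moved the counts of called genes most. With 50 counts in both libraries, 28 genes were at least 2-fold lower and 14 higher, 206 and 245 passed 1.5-fold, 6 and 5 were seen in SW480 and not in SW620, and 8 interferon-stimulated genes were at least 1.5-fold higher instead of 14. With 1 count these were 643, 795, 1177, 1495, 243 and 361, since genes of a few counts enter. With library totals, 2 S phase genes instead of 5 were at least 1.5-fold lower. Medians changed sign for intestinal differentiation (-0.061 with 50 counts), fibroblast markers (0.53 with 1 count) and endothelial markers (-0.19 with 50 counts or 1 count, -0.18 after thinning), lists with few members over the filter. Under the other alternatives 56 to 76 genes were at least 2-fold lower and 82 to 142 higher. The SHMT2 ratio stayed within -3.17 to -3.12. Of the named genes past 1.5-fold, 0 changed sign under any alternative. No paired analysis was possible because each group has 1 library and no test was made; for the same reason no replicate could be left out. Transcript length and GC content had Spearman correlations across genes of 0.056 and -0.040 with the SW480 ratio, and chromosome medians lay between -0.03 and 0.03. At 10 to 49 counts the median counting error was 0.39 on the log2 scale.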
